A study of Arabidopsis thaliana with 6 samples.

Results

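The chloroplast genome of Arabidopsis thaliana encodes part of the subunits of 2 complexes of the thylakoid membrane, and 9 of these genes were followed here: atpA, atpB, atpE, atpF, atpH and atpI of the ATP synthase, and petA, petB and petD of the cytochrome b6f complex. They were chosen as the plastid-encoded genes of these symbols in the annotation of the ATH1 array, a 1-colour array that gives 1 value per set of short probes. Each gene had 1 probe set, so the group holds 9 of the 22746 probe sets that are not controls. RNA came from whole seeds at growth stage 0.7, the stage at which hypocotyl and cotyledons emerge. The first genotype was a double mutant with T-DNA inserts in At2g22780 and At5g09660, the genes PMDH1 and PMDH2 for peroxisomal malate dehydrogenase. The second was a wild-type segregant of a T-DNA heterozygote, with Col-0 as its source. The disrupted genes have no probe set named for them here, so the genotypes were not checked by their transcripts. Each genotype had 3 arrays. All seeds were kept for 2 days at 4 °C on agar and then grown in continuous light at 22 °C, on half-strength Murashige and Skoog medium with 1% sucrose. The labels do not say whether the replicates were separate harvests, and p-values then measure no more than the scatter among these arrays, some of which may be technical.

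In the thylakoid membrane, the cytochrome b6f complex passes electrons from plastoquinol to plastocyanin and moves protons into the lumen. The ATP synthase lets these protons flow back and makes ATP. Both complexes are mosaics: the nucleus encodes some of their subunits and the plastid the others, so building them takes both genomes. Plastid genes are read largely as polycistronic units, that is, several genes on 1 primary transcript that is later cut and spliced. Most plastid genes of photosynthesis are transcribed by the bacterial-type polymerase of the plastid, whose core is also plastid-encoded. Cotyledon plastids of a germinating seed turn from proplastids or etioplasts into chloroplasts in the light.

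Values are MAS5 signals on a linear scale, in arbitrary units, and signals of different probe sets cannot be set against each other. Median signals of the arrays were 37.7 to 39.0 (mutant) and 34.1 to 36.5 (wild type), slightly higher in all mutant arrays. The 3′ to 5′ log2 ratios of the actin control, a measure of RNA integrity, overlapped, with 2.37 to 2.80 for mutant arrays and 2.58 to 3.14 for wild-type arrays. For GAPDH they were −0.47 to −0.06 (mutant) and −0.40 to −0.23 (wild type). For ubiquitin they were 1.19 to 1.34 (mutant) and 1.08 to 1.52 (wild type). The genotypes overlapped for each control, but the actin ratios were much higher than those of the other controls. Fold changes below are mutant minus wild type on the scale log2(signal + 10), with limma's moderated SE and an adjusted p over all 13648 probe sets bright enough to be tested. Because each value is from whole seeds, fewer green cells or plastids and less RNA in each cannot be told apart.

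The genes for the catalytic head and central stalk of the ATP synthase were lower in the double mutant by about the same amount. The gene atpA (locus ArthCp007) encodes the alpha subunit, which alternates with beta in the head. Its signals were 1835, 1652 and 1180 in the mutant arrays, against 2341, 2305 and 2029 in the wild-type arrays. Every mutant array lay below every wild-type array, and atpA fell by 0.53 on the log2 scale (SE 0.13, limma adjusted p = 0.0353), or 1.45-fold. The call stood without mutant replicate 1 but not without any 1 of the other 5 arrays (adjusted p up to 0.144 in limma), and the change was −0.35 without mutant replicate 3. The gene atpB (ArthCp029) encodes the beta subunit, which holds the catalytic sites. Its signals were 2860, 2236 and 2064 in the mutant, against 3372, 4446 and 2867 in the wild type. The groups did not overlap, but the highest mutant array nearly reached the lowest wild-type array, and the change was −0.57 (SE 0.14, limma adjusted p = 0.0374). Its call was lost without mutant replicate 2 or 3 (−0.53 and −0.47) or wild-type replicate 1 or 2 (−0.59 and −0.39). The gene atpE (ArthCp028) encodes the epsilon subunit at the foot of the central stalk. Its signals were 2373, 2368 and 1871 in the mutant, against 3397, 3468 and 2849 in the wild type. The groups were clearly apart, and at −0.56 (SE 0.11, limma adjusted p = 0.00804) its change was close to that of atpB. Its call was lost without mutant replicate 3 (−0.44, limma adjusted p = 0.0501).

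The genes for the membrane part and the peripheral stalk had larger changes on average, with far more scatter, and none passed the test. The gene atpF (ArthCp008) encodes a b-type subunit of the peripheral stalk and contains an intron. Its signals were 607, 639 and 205 in the mutant, against 889, 857 and 481 in the wild type. Mutant replicate 3 was 3.04-fold below the mean of the other mutant arrays, the other mutant arrays lay within the wild-type range, and the change of −0.72 (SE 0.32) had a limma adjusted p of 0.256. The gene atpH (ArthCp009) encodes the c subunit, copies of which form the rotating ring. Its signals were 573, 733 and 229 in the mutant, against 735, 976 and 683 in the wild type. Here too mutant replicate 3 was by far the lowest, 2.86-fold below the other mutant arrays, and mutant replicate 2 lay inside the wild-type range (−0.77, SE 0.28, limma adjusted p = 0.165). Without mutant replicate 3 the changes were −0.20 for atpF and −0.28 for atpH, and no other single array moved them as far. In that fit they were smaller than those of atpA (−0.35), atpE (−0.44) and atpB (−0.47). However, that fit kept wild-type replicate 3, the lowest of its group for both genes at 481 and 683. Leaving out wild-type replicate 3 alone made both changes larger, with atpH at −0.87. Leaving out mutant replicate 1 gave −0.96 and −0.92, and leaving out wild-type replicate 2 gave −0.59 and −0.61. A fit without replicate 3 of both genotypes was not tested. The gene atpI (ArthCp010), for subunit a, which forms the proton channel with the ring, was dim at 22.0, 12.9 and 7.43 in the mutant, against 30.1, 24.3 and 30.5 in the wild type. All its mutant signals lay below all wild-type signals, but its mean log2 value of 4.90 missed the floor of 5.02 for testing. Its change of −0.71 depends on the pseudocount of 10 and was −1.14 with signals only floored at 1. Without mutant replicate 3 it was −0.50.

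**Figure D1:**
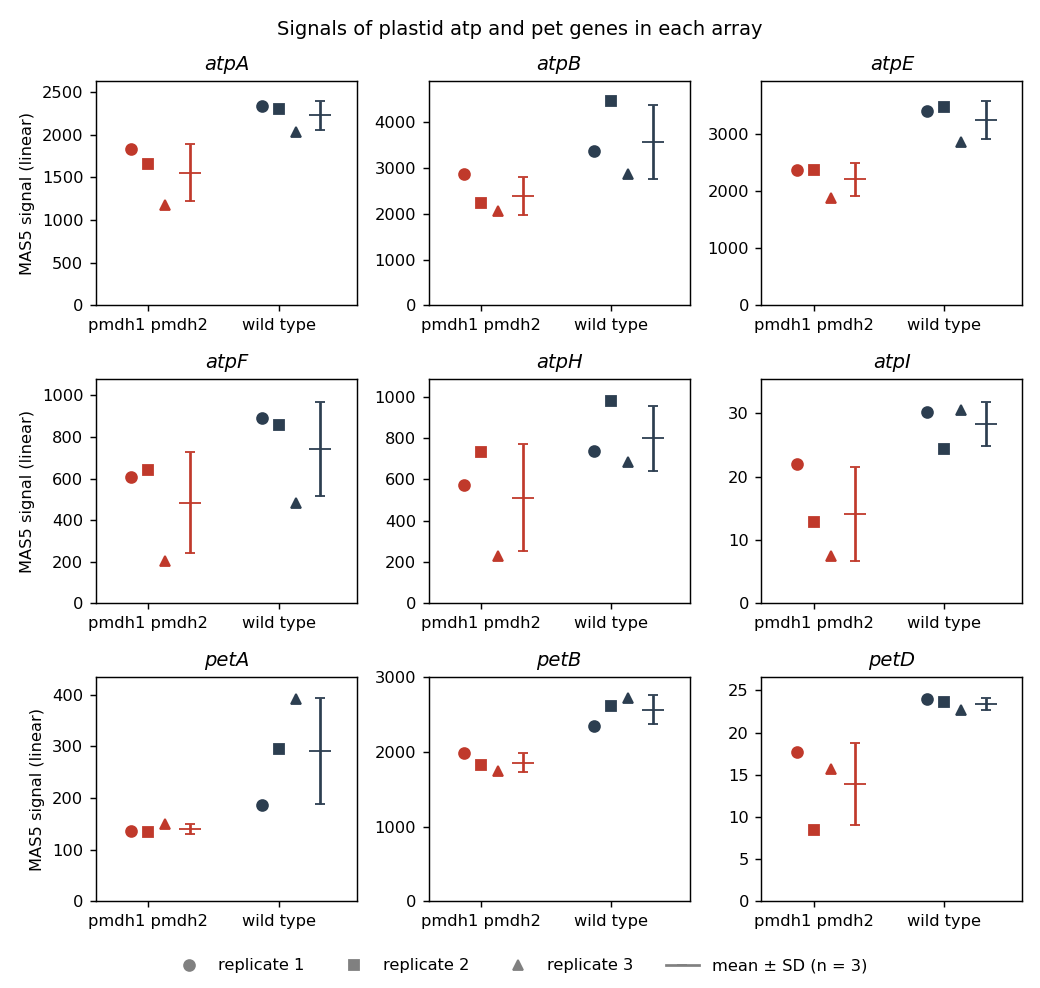
MAS5 signal (linear scale, arbitrary units) of each gene in the 3 double mutant arrays (red, left) and the 3 wild-type arrays (dark, right), with replicate numbers as marker shapes and mean ± SD (n = 3) beside them. The genotypes are apart in 7 of the 9 panels, and mutant replicate 3 (triangle) is low for atpF and atpH, at 205 and 229.

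Among petA, petB and petD, petA had the largest change. It encodes cytochrome f, the c-type cytochrome that hands electrons to plastocyanin. The signals of petA (ArthCp035) were 136, 134 and 150 in the mutant, against 187, 294 and 391 in the wild type. The mutant arrays lay within a narrow band below a widely spread wild type, and petA fell by 0.94 on the log2 scale (SE 0.19, limma adjusted p = 0.00942), or 1.92-fold. Leaving out wild-type replicate 1 gave −1.22 and leaving out wild-type replicate 3 gave −0.71, and the call was lost without mutant replicate 2 (adjusted p = 0.0645 in limma). The gene petB (ArthCp053) encodes cytochrome b6, which carries the haems of the complex within the membrane. Its signals were 1993, 1833 and 1751 in the mutant, against 2348, 2623 and 2722 in the wild type. Both groups were tight, so the smallest change of the 9, −0.46 (SE 0.093), still passed with a limma adjusted p of 0.00951, but not without mutant replicate 3 or wild-type replicate 3 (−0.42 for each). The gene petD (ArthCp054) encodes subunit IV, the partner of cytochrome b6. Its signals were 17.7, 8.49 and 15.6 in the mutant, against 23.97, 23.59 and 22.65 in the wild type. The groups were apart, but petD was dim like atpI and was not tested, at a mean log2 value of 4.81 and a change of −0.50, or −0.82 with signals floored at 1.

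All 9 genes had negative changes, from −0.94 for petA to −0.46 for petB, with a median of −0.57 against 0.05 over all probe sets tested. Of the 7 that passed the brightness filter, 5 were called lower and 0 higher at an adjusted p under 0.05, and all 7 had an unadjusted p under 0.05. Of all probe sets tested, 1.82% were called lower and 1.96% higher, 3.78% in either direction, and 7% were lower at an unadjusted p under 0.05. Signals of the genotypes did not overlap for 7 of the 9 genes, with the mutant below the wild type, as for 7.21% of all probe sets that are not controls. Values between −0.66 and −0.54 lay inside the 95% intervals of all 7 tested genes. Intervals of neighbours in the order of changes thus overlapped, and atpH and atpF had the widest (−1.37 to −0.17 and −1.39 to −0.04). With each array centred on its median the 9 changes ran from −1.03 to −0.55 and the same number, 5, was called, while 72.6% of all calls over the array were then lower, against 48.3% at the deposited scaling.

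These calls had little margin. With no brightness filter limma called 0 of the 9, where 0.444% of all probe sets were called lower, and 7 of the 9 then had an unadjusted p under 0.05. Dropping the intensity trend left 1 call of 7, petA, and quantile normalization left 2, atpE and petA. The count was 2 when mutant replicate 2 was left out, 1 when mutant replicate 3 was, and 3 when any 1 wild-type array was. It stayed at 5 without mutant replicate 1, with a pseudocount of 20 or none, and with the filter at the 60th percentile. With robust eBayes it was 4.

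**Figure D2:**
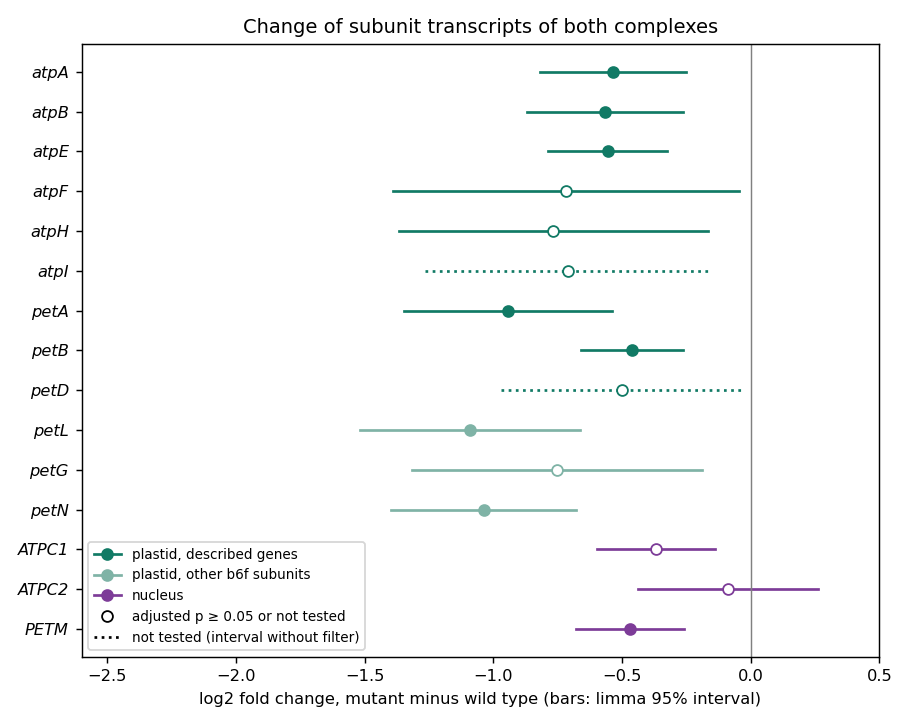
Change of the subunit genes of both complexes, as mutant minus wild type on the log2 scale, with limma 95% intervals as bars. Filled points passed at an adjusted p under 0.05, open points did not pass or were not tested, and dotted bars are intervals from the fit without the brightness filter. All points lie below 0, from −1.09 for petL to −0.09 for ATPC2.

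Green cotyledon and seed markers moved with the genotype, while the summed signals of the other marker lists overlapped. All 4 green cotyledon markers listed were measured and had negative changes, and 3 were called lower in the mutant (LHCB4.1, LHCB4.2 and RCA). PRK, at −0.29, did not pass (limma adjusted p = 0.257). The summed signal of the 4 was 4690 to 5392 (mutant) and 6874 to 7767 (wild type), and none of them had a signal near 0. Of 16 seed storage and maturation markers 4 were measured, 3 of them higher in the mutant (M17, PAP85 and AT3G01570). The other, OLEO3, had signals of 44.0, 49.0 and 38.9 in the mutant, against 56.3, 53.7 and 58.5 in the wild type, and did not pass (−0.30, limma adjusted p = 0.309). The 4 had a summed signal of 468 to 563 (mutant) and 86.1 to 103 (wild type). M17 was under the pseudocount in all wild-type arrays. Summed signals were 4183 to 4370 (mutant) and 3891 to 4796 (wild type) for ICL, a glyoxylate cycle gene and 1 of 2 seedling markers. For the 2 root hair markers they were 535 to 642 (mutant) and 541 to 684 (wild type), and for the 2 dividing cell markers 212 to 233 (mutant) and 221 to 229 (wild type). The 1 endosperm marker had no probe set named for it. The part of cotyledon greening or of seed stage in the lower plastid transcripts was not tested.

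Within a genotype, the ATP synthase genes tended to move together from array to array. In mutant replicate 3, atpF and atpH lay 1.04 and 0.98 log2 units under their group means, and atpA, atpI, atpE and atpB were also under theirs, by 0.37, 0.42, 0.23 and 0.19. In that array petA and petD were above their means, by 0.10 and 0.12, and petB was 0.08 below. In wild-type replicate 3, 5 of the 6 ATP synthase genes were under their means, with atpF at −0.56, while atpI was at 0.09, petA at 0.48, petB at 0.09 and petD at −0.03. Over the deviations of the 6 arrays from their group means, Pearson's r was 0.96 between atpA and atpF, 0.92 between atpF and atpH, and 0.98 between atpE and atpF, which lie in different units. Between petA and atpE it was −0.57, and between petA and petB, of different units, it was 0.67. The median r was 0.77 over the 8 pairs of genes that share a transcription unit and 0.27 over the other 28 pairs. All of these 8 except petB with petD (r = 0.16) join ATP synthase genes, while the other 28 include all pairs across the complexes. ATP synthase genes of different units had r from 0.34 (atpB and atpI) to 0.98, with 0.92 for atpA and atpE. Sharing a unit and sharing a complex were thus not separated. These correlations describe 6 arrays whose genes share the same RNA, labelling and scaling. How far mutant replicate 3 alone sets them was not tested.

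**Figure D3:**
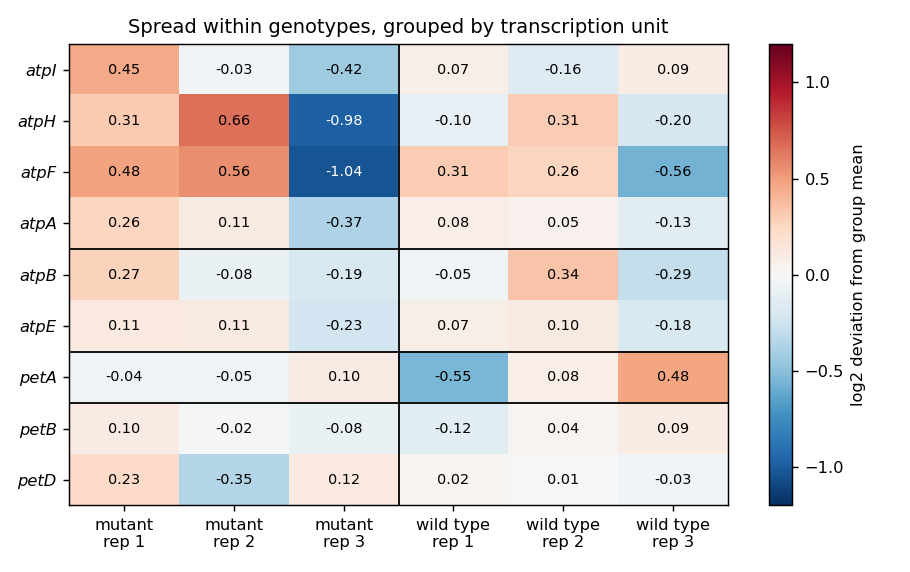
Log2 deviation of each gene from the mean of its genotype in each of the 6 arrays, with the genes grouped by transcription unit (black lines). Mutant replicate 3 is low for all 6 ATP synthase genes, down to −1.04 for atpF, while petA runs the other way in replicate 3 of both genotypes.

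Neighbours on the plastid genome, by the order of genes in the TAIR10.1 annotation, allowed each gene to be set beside those co-transcribed with it. The unit rps2-atpI-atpH-atpF-atpA begins with rps2, a ribosomal protein gene. It changed by −0.31 (SE 0.14, limma adjusted p = 0.275), and its signals of 312, 213 and 248 in the mutant overlapped 279, 361 and 319 in the wild type. The within-array log2 difference of atpA minus rps2 averaged 2.54 ± 0.347 in the mutant and 2.77 ± 0.225 in the wild type (SD, n = 3 each, exact two-sided permutation p = 0.4). In the unit atpB-atpE, whose genes overlap by a few bases, atpE minus atpB averaged −0.109 ± 0.178 in the mutant and −0.119 ± 0.207 in the wild type (SD, n = 3 each, exact p = 1). The difference between the genotypes, 0.0095, was far smaller than the SD of either.

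The unit psbB-psbT-psbH-petB-petD starts with psbB, for the CP47 antenna protein of photosystem II. The estimated change of psbB was larger than that of petB. The signals of psbB were 60.02, 68.03 and 37.20 in the mutant, against 113, 171 and 126 in the wild type, a fall of 1.18 on the log2 scale (SE 0.19, limma adjusted p = 0.00138). Further along the unit, psbH, for a small photosystem II subunit, fell by 0.66 (SE 0.16, adjusted p = 0.0313 in limma), psbT changed by −0.61 (SE 0.22, adjusted p = 0.155) and petB fell by 0.46. The call of psbH stood without mutant replicate 1 alone, and its change was −0.42 without mutant replicate 3. That of psbT was −0.37 without mutant replicate 2, and −0.83 and called without wild-type replicate 1. The 95% interval of psbB, −1.58 to −0.79, did not overlap that of petB, −0.66 to −0.26. The log2 difference of petB minus psbB was 4.84, 4.56 and 5.22 in the mutant, against 4.26, 3.86 and 4.33 in the wild type. It was higher in every mutant array by 0.72 on average, at the smallest exact two-sided permutation p that 3 against 3 allows, 0.1, or 0.4 after adjustment over the 4 such pairs compared. The gene psbN, on the other strand between psbT and psbH, was dim, at 6.91 to 14.8 (mutant) and 13.8 to 22.1 (wild type), and was not tested.

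In the unit psaI-ycf4-cemA-petA, 3 of the 4 genes were called lower. The photosystem I subunit gene psaI changed by −0.46 (SE 0.15, limma adjusted p = 0.109). The gene ycf4, for a photosystem I assembly factor, fell by 0.79 (SE 0.16, limma adjusted p = 0.00951), and cemA, for an envelope membrane protein, by 0.90 (SE 0.14, limma adjusted p = 0.00101). The call of ycf4 was lost without mutant replicate 2 (−0.79), mutant replicate 3 (−0.67) or wild-type replicate 2 (−0.67), and psaI was called without wild-type replicate 3 (−0.61). The signals of cemA were 224, 194 and 202 in the mutant, against 314, 448 and 435 in the wild type. The log2 difference of petA minus psaI averaged −1.56 ± 0.275 in the mutant and −1.07 ± 0.789 in the wild type and overlapped (SD, n = 3 each, exact p = 0.4). The 4 ratio pairs had adjusted p-values of 0.4 to 1, and they were picked with the values known.

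**Figure D4:**
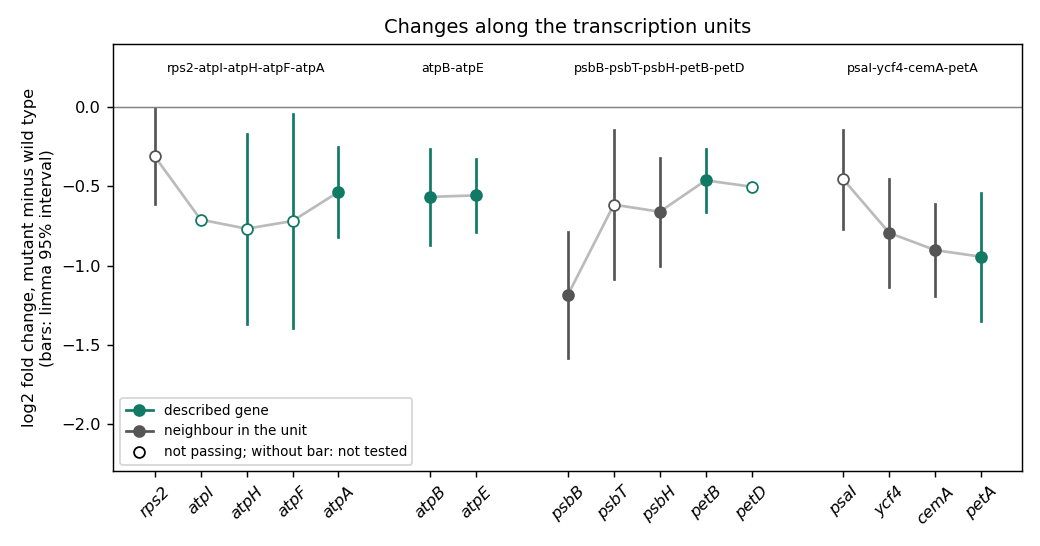
Change (mutant minus wild type, log2 scale) along 4 plastid transcription units, drawn in the order of transcription, with limma 95% intervals. Green points are the 9 genes and grey points their neighbours, and open points did not pass or, without a bar, were not tested. The intervals of psbB and petB, a pair picked with its values known, do not overlap, and the change of psbB, −1.18, is the largest shown.

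The cytochrome b6f complex has further plastid-encoded subunits, small proteins of a single membrane span. The gene petN fell by 1.04 on the log2 scale (SE 0.17, limma adjusted p = 0.00181), with signals of 39.6, 32.7 and 34.6 in the mutant, against 111, 67.4 and 77.5 in the wild type. The gene petL fell by 1.09 (SE 0.20, limma adjusted p = 0.00505), at 133, 67.7 and 148 in the mutant, against 239, 234 and 271 in the wild type. Its neighbour petG changed by −0.75 (SE 0.27, limma adjusted p = 0.141), at 57.3, 35.2 and 14.3 in the mutant, against 51.6, 67.8 and 63.8 in the wild type. For petN and petL the groups were well apart, while 1 mutant array of petG lay inside the wild-type range. The change of petG was −0.36 without mutant replicate 3, and it was −1.09 and called without mutant replicate 1.

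Among the 6 nuclear subunit genes of both complexes that were listed, 3 had a probe set named for them, 1 was called lower, and 2 did not pass. PETM (AT2G26500), for another small subunit of cytochrome b6f, had signals of 1542, 1405 and 1439 in the mutant, against 1808, 2067 and 2229 in the wild type. It fell by 0.47 on the log2 scale (SE 0.098, limma adjusted p = 0.0124), close to petB, with no overlap. Dropping the filter, the trend, mutant replicate 2, mutant replicate 3 or wild-type replicate 3 ended this call, as did quantile normalization. ATPC1 (AT4G04640), for the gamma subunit that turns inside the head of the ATP synthase, had signals of 1670, 2025 and 1723 in the mutant, against 2090, 2665 and 2261 in the wild type. Its groups were also apart, but at −0.37 (SE 0.11, limma adjusted p = 0.0736) it did not pass, although it did when wild-type replicate 1 was left out or the arrays were centred. ATPC2 (AT1G15700), a second gamma gene, changed by −0.09 (SE 0.16, limma adjusted p = 0.833), with signals of 38.77, 34.54 and 39.99 in the mutant, against 36.6, 51.1 and 35.9 in the wild type.

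Only some listed nuclear genes that help to build these complexes or act next to them had a named probe set. None of these was called. Of 16 listed factors for RNA maturation and assembly, 9 were measured and limma called 0, with 1 unadjusted p under 0.05. That one was CCB3, a factor for haem attachment to cytochrome b6, at −0.45 (SE 0.14, limma adjusted p = 0.0921). Its signals were 56.7, 45.3 and 56.1 in the mutant, against 71.4, 75.9 and 78.5 in the wild type, without overlap, and it passed after centring of the arrays or quantile normalization. PAB, BFA2 and BFA3, factors for the ATP synthase, changed by −0.22, −0.18 and −0.17 and did not pass. In all, 6 of the 9 had a negative change and 3 a positive one, up to 0.12 for CRP1, with BFA1, another ATP synthase factor, at 0.05. Of 10 listed electron carriers and cyclic electron flow genes, PGRL1B and CYTC6A were measured, at −0.08 and 0.05, with 0 limma calls and 0 unadjusted p-values under 0.05, and CYTC6A was at −0.04 after centring of the arrays. Of the 8 nuclear sigma factor and phage-type polymerase genes listed, RPOTMP alone had a named probe set, and it was too dim to test. The 4 measured nuclear genes of the mitochondrial ATP synthase, which uses the respiratory proton gradient, ran from −0.09 to 0.12, with 0 limma calls and 0 unadjusted p-values under 0.05.

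Changes were negative for nearly all other plastid-encoded genes as well, and 29 of those tested were called. Of the 60 other plastid-encoded probe sets, 59 had a negative change, 55 were tested and 52.7% of these were called lower, with a median of −0.62. The median was −0.78 for the 5 photosystem I genes and −0.66 for the 15 photosystem II genes, of which psbA, for the D1 protein, fell by 1.27 on the log2 scale (SE 0.11, limma adjusted p = 1.96e-06). It was −0.78 for the 10 ndh genes, −0.61 for the 4 RNA polymerase genes and −0.42 for the 15 ribosomal protein genes. All 15 of the last had a negative change, and 4 of 14 tested were called lower. The 23 probe sets of mitochondria-encoded genes had a median of 0.02, but 15 of them were too dim to test, where the pseudocount draws changes towards 0. The 8 tested had a median of −0.12, and limma called 0 of them, with 0 unadjusted p-values under 0.05. The count of other plastid calls was 12 without the filter and 17 without the trend, and it was 16, 19 and 17 without mutant replicate 2, mutant replicate 3 or wild-type replicate 2.

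Summed over the 9 genes, the signal was 0.332%, 0.306% and 0.238% of the total in the mutant arrays, against 0.414%, 0.461% and 0.377% in the wild-type arrays. This sum is carried by the brightest probe sets, and the groups did not overlap. The other 60 plastid probe sets together took 0.770% ± 0.0973 in the mutant and 1.12% ± 0.0600 in the wild type (SD, n = 3 each), so the ratio of mutant to wild type was 0.690 for them and 0.700 for the 9 genes. The mean log2 value of the 9 genes exceeded that of the other plastid probe sets by 1.08, 1.21 and 0.92 log2 units in the mutant, against 1.10, 1.08 and 1.06 in the wild type. The mutant arrays thus lay on both sides of the wild-type arrays on this measure.

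**Figure D5:**
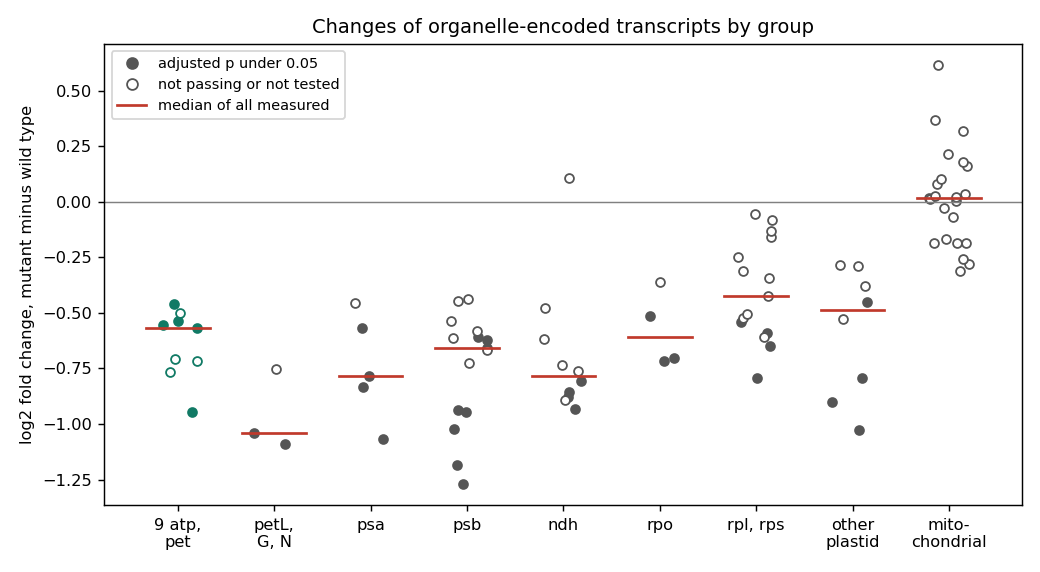
Change (mutant minus wild type, log2 scale) of each plastid-encoded probe set by group, with the 9 atp and pet genes in green at the left and the mitochondria-encoded probe sets at the right. Filled points passed at an adjusted p under 0.05, and red lines are medians of all measured, −0.57 for the 9 genes and 0.02 for the mitochondria-encoded ones (−0.12 over the 8 tested).

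The profile of the 7 tested genes over the 6 arrays was also compared with those of 7324 other tested probe sets that name 1 gene. The 6 most alike were AT1G77580, AT1G67280, LIL3:2, AT4G28025, psbE and AT1G44790, with Pearson's r from 0.97 to 1.00. Over deviations from the group means, r was between 0.92 and 0.99. LIL3:2 encodes a light-harvesting-like protein, and psbE a subunit of cytochrome b559 in photosystem II. Their changes ran from −0.58 for psbE to −0.24 for AT1G77580, and none was called at an adjusted p under 0.05 in limma (adjusted p from 0.0557 to 0.453). Among the 20 most alike, 7 were plastid-encoded, although plastid genes made up 55 of the 7324. The likeness rests on 6 arrays that share RNA and scaling. In the profile, atpF and atpH lay far below their group means in mutant replicate 3 (−1.04 and −0.98). How far that array sets these r values was not tested.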

How the data were processed

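The authors deposited 1 intensity per probe set on a linear scale; MAS5 is the tool that the submitters' processing notes name, with no version. The labels give biotin as the label but not the primer used, which bears on plastid RNAs because they mostly lack poly(A) tails. From the values, every array has a mean close to 100.01 after trimming 2% at each end. MAS5 subtracts mismatch probes, so dim signals are noisy.

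Signals were taken as log2(signal + 10). After removal of 64 control probe sets, the 13648 whose mean reached the 40th percentile (5.02) were tested with limma 3.58.1 in R 4.3.3, over all 6 arrays, with no covariate, by eBayes with an intensity trend. Calls are two-sided at a Benjamini-Hochberg adjusted p under 0.05. Intervals are limma's 95% intervals, and those of dim genes come from the unfiltered fit. Ratios within units used exact permutation tests. The fit was tested on simulated data with independent noise for each probe set, unlike real arrays whose genes can move together. It called 42.2% of added changes of 0.5 log2 units and 98.5% of those of 1. Of its calls, 6.15% were false.

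Genes were named from the platform annotation, updated through gene identifiers to TAIR10.1, and unit order follows its loci. The annotation named 1 gene for 13513 of the 22746 probe sets, several for 503 and none for 8730. Genes are called measured where a probe set names them alone. Listed genes without such a probe set may still lie on one with no name or several. Coordinates are not given because no build is named for these values, and no sequences were used here. Members, lists, units and the rule for named genes were chosen with earlier results of these data known. The rule names all members, unit neighbours, nuclear subunits, up to 4 genes per list by p, and the 6 most alike profiles. The ratio pairs were picked after their values were seen. Alternatives changed the pseudocount, filter, scaling, variance model, replicate block and probe sets used, or left out 1 array. The 3 arrays per group limit the precision.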

Additional observations from a re-analysis of the deposited data

How the results depend on the processing

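All 9 genes kept a negative change in each of the 17 alternatives, which were all planned. Of the 119 values of the 7 tested members, 91 kept their side of the threshold, 26 lost the call and 2 gained it. The members called numbered 0 without the filter, 1 without the intensity trend and 2 under quantile normalization, and 1 to 5 with 1 array left out. The median change of the 9 genes lay between −0.74 (signals floored at 1, no pseudocount) and −0.55 (pseudocount 20), or between −0.70 and −0.44 with 1 array left out. Over all probe sets, calls numbered 228 without the filter, 325 without the trend, 211 among probe sets naming 1 gene, and 258 to 705 with 1 array left out. Other plastid-encoded calls numbered 12 without the filter, 17 without the trend and 16 to 30 with 1 array left out. The causes were not tested, apart from fewer arrays or probe sets by construction. Signals near background limit atpI and petD most.

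Deviations of same-numbered arrays of both genotypes correlated at 0.037, 0.17 and 0.13, not all above 0.1, so the numbers were not taken as pairs. Each array did correlate best with its own number, which is a hint from the data and not from the design. With the replicate block limma called 686 probe sets, 7 of the 7 tested members, with atpF (adjusted p = 0.00712) and atpH (adjusted p = 0.0246) added, and 36 other plastid-encoded ones. ATPC1 also passed with the block.

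Small changes of companions that were not called turned sign. Quantile normalization gave −0.0055 for CYTC6A and 0.032 for AT5G47030, the mitochondrial ATP synthase gene for delta′. Centring on the median of all or of nuclear probe sets gave −0.039 and −0.037 for CYTC6A, and −0.028 and −0.025 for AT4G29480, also of the mitochondrial enzyme. With 1 array left out PGRL1B ranged from −0.21 to 0.053, CYTC6A from −0.097 to 0.14, ATPC2 from −0.16 to 0.045 and AT2G19680, of the mitochondrial enzyme, from −0.098 to 0.020. At the 60th percentile filter ATPC2, petN, petG, psbT, rpl36 and orfX were not tested.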
